A study of Mus musculus with 18 samples.

Results

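The 10 genes *Per1*, *Per2*, *Per3*, *Cry1*, *Arntl*, *Clock*, *Nr1d1*, *Nr1d2*, *Dbp* and *Bhlhe40*, all tied to the circadian clock, were followed through resting and stimulated CD4+ T cells of naive and tolerized mice. They were chosen by symbol, as 10 of the 37991 genes counted, and all 10 were among the 17240 genes with enough reads to be tested. RNA was sequenced from 18 libraries, in 6 groups of 3 biological replicates each. The cells were enriched for CD4 from the spleens of male and female Tg4 mice, 6 to 12 weeks old, whose transgenic T cell receptor recognizes the Ac1-9 peptide of myelin basic protein, so every group shared this receptor. Tolerized (T) mice had been given the 4Y form of the peptide under the skin again and again at rising doses, and naive (N) mice had been given PBS. In N0 and T0 the last injection was PBS, and in NAg and TAg it was 80 µg of peptide (Ag), in each case 2 h before the cells were taken. In NPI and TPI the cells spent 2 h in culture with 20 ng/ml of the phorbol ester PMA and 2 µM of the calcium ionophore A23187 (together PI), which act downstream of the T cell receptor.

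The clock is a transcriptional feedback loop found in most cells. ARNTL (BMAL1) and CLOCK bind E-boxes and switch on the *Per*, *Cry*, *Nr1d* and *Dbp* genes, the PER and CRY proteins inhibit that pair, and the REV-ERB receptors encoded by *Nr1d1* and *Nr1d2* repress *Arntl*. *Per1* and *Per2* also answer directly to calcium, cAMP and glucocorticoid signals, and BHLHE40 (DEC1) is a bHLH repressor that competes for E-boxes and controls cytokine production in activated T cells. The time of day of harvest is not given in the sources used here, so the phase of the clock was not tested.

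Library totals ran from 10758571 to 24119489 counted reads, and the PI libraries, at 14895843 or more, were the deepest. The fewest reads of any member in any library were 28. CPM are here the reads of a gene scaled by the library total times its TMM factor, given below. The 4 T cell markers summed to 866 to 1163 CPM in N0 and NPI, 772 to 1054 in T0 and TPI, 651 to 733 in TAg and 394 to 429 in NAg. The 10 neutrophil markers summed to 4.66 to 28.9 CPM in naive groups, 129 to 303 in T0 and TAg and 29.0 to 49.3 in TPI, and 4 of the 10 had no read in NPI. The 8 erythroid markers summed to 1.06 to 25.2 CPM in the naive groups and 6.63 to 166 in the tolerized ones. The 4 Y-linked genes had at most 15 reads in any N0 or NAg library and at least 5599 in every NPI library, so the sex of the animals and PI cannot be told apart in naive cells. They had 7872 or more in every TPI library and ranged from 7 to 6563 in T0 and from 10 to 5111 in TAg. Sex thus also differed within T0 and TAg. It differed in part between tolerized groups, between T0 and N0 and between TAg and NAg. In these bulk samples a change in the share of a cell type and a change in RNA per cell cannot be told apart. A normalized count is the read count divided by the library total times its TMM factor, brought to a common scale. Values per kilobase of exon are given where genes are compared with each other. The TMM factors were 1.22 to 1.38 at rest, 0.916 to 1.06 with antigen and 0.736 to 0.834 with PI. A larger factor lowers the normalized count and the CPM. Fold changes and marker sums compared between rest and PI thus depend on this scaling. No setting used library totals alone. A pair such as NAg:N0 names the first group relative to the second. Every fold change is on the log2 scale with its standard error (SE), and the adjusted p is from edgeR's quasi-likelihood test after Benjamini-Hochberg adjustment over all genes tested.

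The 250 bases in front of the annotated start were taken from RefSeq (GRCm38.p6), in which 8 of the 10 genes matched, with 12 starts. They are shown for 3 genes that differed in their response: *Per1*, which rose with every stimulus, *Cry1*, which passed the test upwards in 3 of 4 responses, and *Per3*, which did so in none. The capitals mark the E-box CACGTG, the first 5 letters TGACG of the cAMP response element (CRE) and the D-box TTANGTAA, each searched on both strands, and TGACG lies within the full element TGACGTCA. The upstream *Per1* start is shown from 250 to 101 bases before it, at chr11:69098699-69098848 on the plus strand. The downstream *Per1* start is shown at chr11:69099902-69100151 on the plus strand, *Cry1* at chr10:85185055-85185304 on the minus strand and *Per3* at chr4:151044666-151044915 on the minus strand.
Per1, upstream start: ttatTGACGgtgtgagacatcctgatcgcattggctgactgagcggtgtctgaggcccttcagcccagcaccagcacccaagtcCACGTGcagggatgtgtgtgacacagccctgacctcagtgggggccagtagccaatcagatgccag
Per1, downstream start: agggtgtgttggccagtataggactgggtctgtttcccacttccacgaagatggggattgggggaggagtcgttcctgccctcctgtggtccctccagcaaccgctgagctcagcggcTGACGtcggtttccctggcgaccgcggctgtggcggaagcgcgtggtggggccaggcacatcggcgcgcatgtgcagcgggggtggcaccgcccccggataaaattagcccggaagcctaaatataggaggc
Cry1: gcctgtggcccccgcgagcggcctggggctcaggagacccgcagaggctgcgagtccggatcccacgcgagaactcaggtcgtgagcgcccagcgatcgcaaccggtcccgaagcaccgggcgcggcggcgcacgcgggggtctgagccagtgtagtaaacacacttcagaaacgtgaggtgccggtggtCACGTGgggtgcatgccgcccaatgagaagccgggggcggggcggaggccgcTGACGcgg
Per3: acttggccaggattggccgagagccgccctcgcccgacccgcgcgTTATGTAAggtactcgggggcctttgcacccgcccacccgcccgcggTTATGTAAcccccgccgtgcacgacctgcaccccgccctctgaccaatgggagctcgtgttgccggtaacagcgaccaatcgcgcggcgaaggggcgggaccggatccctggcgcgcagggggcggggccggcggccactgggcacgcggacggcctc
An E-box began 166 bases before the upstream *Per1* start and 60 bases before the *Cry1* start, in 2 of the 12 windows against 6.02% of 32851 promoters. TGACG lay at 246 and 132 bases before the 2 *Per1* starts and 8 bases before that of *Cry1*, and 17.8% of all promoters hold it. *Per3* had the D-box, the site of the DBP and NFIL3 family, at 205 and 158 bases, a motif in 2.06% of promoters. None of the 12 windows held the full CRE (1.55% of promoters) or the AP-1 site TGANTCA (6.75%), and the RORE core AGGTCA, the site of the REV-ERB and ROR receptors, was in 3, of *Per1*, *Clock* and *Nr1d2*, against 14.0%. These matches are descriptions of the letters in these windows.

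*Per1*, a repressor of the loop, had the highest mean level per kilobase of the 10 genes in N0, T0, NAg and NPI and stood second to *Bhlhe40* in TAg and TPI, and it rose after both stimuli. *Per1* (ENSMUSG00000020893) lies on chromosome 11 at 68908719 to 68923462 (NCBIM37, plus strand). Its normalized counts were 1064, 1917 and 1842 in N0 and 4261, 5126 and 5088 in NAg. In tolerized cells they were 1262, 1144 and 1408 in T0 and 2289.8, 2172 and 2066 in TAg. The groups with and without antigen did not overlap in either state. The log2 fold change was 1.59 (SE 0.17, adjusted p = 5.12e-07) in naive cells and 0.78 (SE 0.17, adjusted p = 0.000848) in tolerized cells. With PI the counts reached 16771, 15534 and 17649 in NPI and 11749, 12559 and 13764 in TPI, above every other library. These were rises of 3.37 (SE 0.18, adjusted p = 2.11e-10) over N0 and 3.32 (SE 0.18, adjusted p = 1.62e-10) over T0.

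*Per2* (ENSMUSG00000055866, chromosome 1, 93312561 to 93355907, minus strand), the partner repressor of *Per1*, rose in all 4 responses but in another order of levels. Its normalized counts were 126, 138 and 145 in N0 and 104, 107 and 73.8 in T0. After antigen they were 841, 841 and 1028 in NAg and 1071, 1061 and 905 in TAg, which overlapped. After PI they were 519, 556 and 519 in NPI and 1069, 1002 and 1131 in TPI. Thus NPI was the lowest of the 4 stimulated groups for *Per2* and the highest for *Per1*. The log2 fold changes were 2.73 (SE 0.12, adjusted p = 2.22e-16) for NAg:N0, 3.41 (SE 0.12, adjusted p = 1.31e-17) for TAg:T0, 1.96 (SE 0.12, adjusted p = 4.49e-13) for NPI:N0 and 3.48 (SE 0.12, adjusted p = 7.34e-18) for TPI:T0.

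*Per3* (ENSMUSG00000028957, chromosome 4, 150377761 to 150418774, minus strand) fell with PI in both states. It had 81.2, 88.7 and 79.3 normalized counts in N0 and 132, 105 and 95.9 in T0. With PI it had 29.1, 36.3 and 34.0 in NPI and 49.3, 37.3 and 44.3 in TPI, below every library of the other groups. The log2 fold change was −1.32 (SE 0.18, adjusted p = 6.12e-07) in naive and −1.34 (SE 0.17, adjusted p = 1.24e-07) in tolerized cells. After antigen it had 75.5, 67.0 and 66.0 in NAg and 132, 118 and 114 in TAg, and neither NAg:N0 (−0.26, SE 0.17, adjusted p = 0.18) nor TAg:T0 (0.13, SE 0.15, adjusted p = 0.503) passed the test. *Per3* was the lowest of the 10 genes per kilobase in 5 groups, at 3.45 ± 0.38 (SD, n = 3) in NPI, where *Per1* stood at 2957 ± 189 (SD, n = 3).

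*Cry1* (ENSMUSG00000020038, chromosome 10, 84594447 to 84647799, minus strand), the other repressor of ARNTL and CLOCK, rose by less. Its normalized counts were 562, 551 and 483 in N0 and 428, 484 and 454 in T0. After antigen they were 876, 1033 and 1014 in NAg and 838, 777 and 804 in TAg, with log2 fold changes of 0.87 (SE 0.09, adjusted p = 4.11e-09) and 0.82 (SE 0.09, adjusted p = 1.68e-08). After PI they were 574, 610.3 and 615 in NPI and 734, 775 and 908 in TPI. In normalized counts the naive libraries thus lay close to rest, at 0.17 (SE 0.09, adjusted p = 0.0993), while TPI rose by 0.82 (SE 0.09, adjusted p = 1.3e-08). Both readings depended on the TMM factors. Before scaling *Cry1* had 567, 528 and 487 reads in N0 and 552, 555 and 724 in NPI. In tolerized cells it had 484, 548 and 473 reads in T0 and 909, 706 and 1251 in TPI. The PI library totals were larger than those at rest, and a fit to totals alone was not run.

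In normalized counts, *Arntl* of the activating pair moved in opposite directions with the 2 stimuli and *Clock* stayed within a narrow range. *Arntl* (ENSMUSG00000055116, chromosome 7, 120350979 to 120457636, plus strand) had 439.8, 379 and 449 normalized counts in N0, 241, 236 and 251 in NAg and 708, 685 and 733 in NPI. In tolerized cells it had 440.5, 462 and 470.0 in T0, 245, 333 and 266 in TAg and 784, 738 and 809 in TPI. Every antigen library lay below, and every PI library above, all 6 resting libraries. The log2 fold changes were −0.80 (SE 0.10, adjusted p = 1.12e-07) for NAg:N0 and −0.70 (SE 0.10, adjusted p = 7.81e-07) for TAg:T0. With PI they were 0.75 (SE 0.09, adjusted p = 1.84e-07) for NPI:N0 and 0.77 (SE 0.09, adjusted p = 7.24e-08) for TPI:T0. The rise with PI depended on the TMM factors. Before scaling *Arntl* had 498, 523 and 490 reads in T0 and 971, 672 and 1114 in TPI. The library totals were 11198930, 11405047 and 11453566 in T0 and 22982619, 16196386 and 24119489 in TPI. In tolerized cells the reads thus rose about as much as the totals, and a fit to totals alone was not run. *Clock* (ENSMUSG00000029238, chromosome 5, 76639992 to 76733817, minus strand) had group means between 626 ± 21.7 (SD, n = 3) in NPI and 725 ± 17.4 (SD, n = 3) in T0. Every pair of neighbours in the order of its group means overlapped. That range depended on the TMM factors too. Before scaling *Clock* had 827, 798 and 769 reads in T0 and 807, 607 and 897 in TPI, where the totals were larger. Its only call among the 4 responses, NPI:N0 at −0.18 (SE 0.08, adjusted p = 0.0451), was lost with DESeq2 (adjusted p = 0.11), and also when N0 replicate 2 or any 1 of the 3 NPI libraries was left out (adjusted p from 0.0528 to 0.138).

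The REV-ERB genes rose with antigen, and only *Nr1d2* passed the test with PI. *Nr1d1* (ENSMUSG00000020889, chromosome 11, 98629246 to 98636647, minus strand) was scarce at rest, with 29.7, 30.3 and 49.6 normalized counts in N0 and 60.1, 68.0 and 40.3 in T0. It had 164, 162 and 175 in NAg and 112, 91.8 and 80.9 in TAg, which were higher than any library of the other 4 groups. The log2 fold change was 2.19 (SE 0.24, adjusted p = 1.1e-08) for NAg:N0 and 0.75 (SE 0.23, adjusted p = 0.00631) for TAg:T0, and the latter was 0.54 (adjusted p = 0.0645) without T0 replicate 3. With PI it had 41.6, 53.9 and 38.2 in NPI and 38.8, 51.6 and 70.4 in TPI, which overlapped with rest (0.28, SE 0.26, adjusted p = 0.367, and −0.06, SE 0.23, adjusted p = 0.821). *Nr1d2* (ENSMUSG00000021775, chromosome 14, 19036568 to 19071641, minus strand) had 587, 793 and 792 in N0 and 622, 742 and 681 in T0. It reached 2087, 2274 and 2129 in NAg and 1399, 1178 and 1291 in TAg, for log2 fold changes of 1.58 (SE 0.10, adjusted p = 3.39e-13) and 0.92 (SE 0.10, adjusted p = 1.04e-08). With PI it stood at 2080.4, 2041 and 2221 in NPI and 1754, 1946 and 1724 in TPI. These were rises of 1.55 (SE 0.10, adjusted p = 1.42e-12) and 1.41 (SE 0.10, adjusted p = 4.31e-12), so NAg and NPI reached overlapping levels of *Nr1d2*. Exons of *Nr1d1* share 263 bases with *Thra* on the other strand, and whether the counting used strand is not given in the sources used here.

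*Dbp* (ENSMUSG00000059824, chromosome 7, 52960458 to 52965525, plus strand), a PAR bZIP factor and a standard output gene of ARNTL and CLOCK, fell in all 4 responses. Its normalized counts were 192, 239 and 269 in N0, 45.5, 43.5 and 52.8 in NAg and 134, 95.7 and 106 in NPI. In tolerized cells they were 164, 185 and 207 in T0, 30.8, 34.6 and 42.0 in TAg and 47.7, 48.3 and 63.2 in TPI. No stimulated library reached any resting library. The log2 fold changes were −2.30 (SE 0.18, adjusted p = 3.17e-11) for NAg:N0 and −2.36 (SE 0.19, adjusted p = 5.28e-11) for TAg:T0, and −1.06 (SE 0.16, adjusted p = 3.95e-06) for NPI:N0 and −1.79 (SE 0.17, adjusted p = 1.74e-09) for TPI:T0. Of its exon length 16.7% lies opposite *Sphk2*, so some reads of the pair could be exchanged.

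*Bhlhe40* (ENSMUSG00000030103, chromosome 6, 108610623 to 108616919, plus strand) had the largest fold between its lowest and highest group mean of the 10 genes, while the largest span in normalized counts was that of *Per1*, and the highest level of *Bhlhe40* was in TPI. It had 218, 112 and 208 normalized counts in N0 and 272, 294 and 255 in T0. After antigen it had 3379.8, 2713 and 1999 in NAg and 1586, 1723 and 1996 in TAg, so the lowest naive library lay just above the highest tolerized one. After PI it had 2070.0, 2917 and 2592 in NPI and 8517, 7878 and 8584 in TPI. Every TPI library was thus more than 2 times as high as every other library. The log2 fold changes were 3.91 (SE 0.24, adjusted p = 3.2e-09) for NAg:N0, 2.69 (SE 0.23, adjusted p = 1.36e-07) for TAg:T0, 3.81 (SE 0.24, adjusted p = 7.06e-09) for NPI:N0 and 4.93 (SE 0.24, adjusted p = 2.87e-10) for TPI:T0. Per kilobase its mean level was 54.8 in N0, against 285 for *Per1*, and 2545 in TPI, against 2254 for *Per1*.

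**Figure D1:**
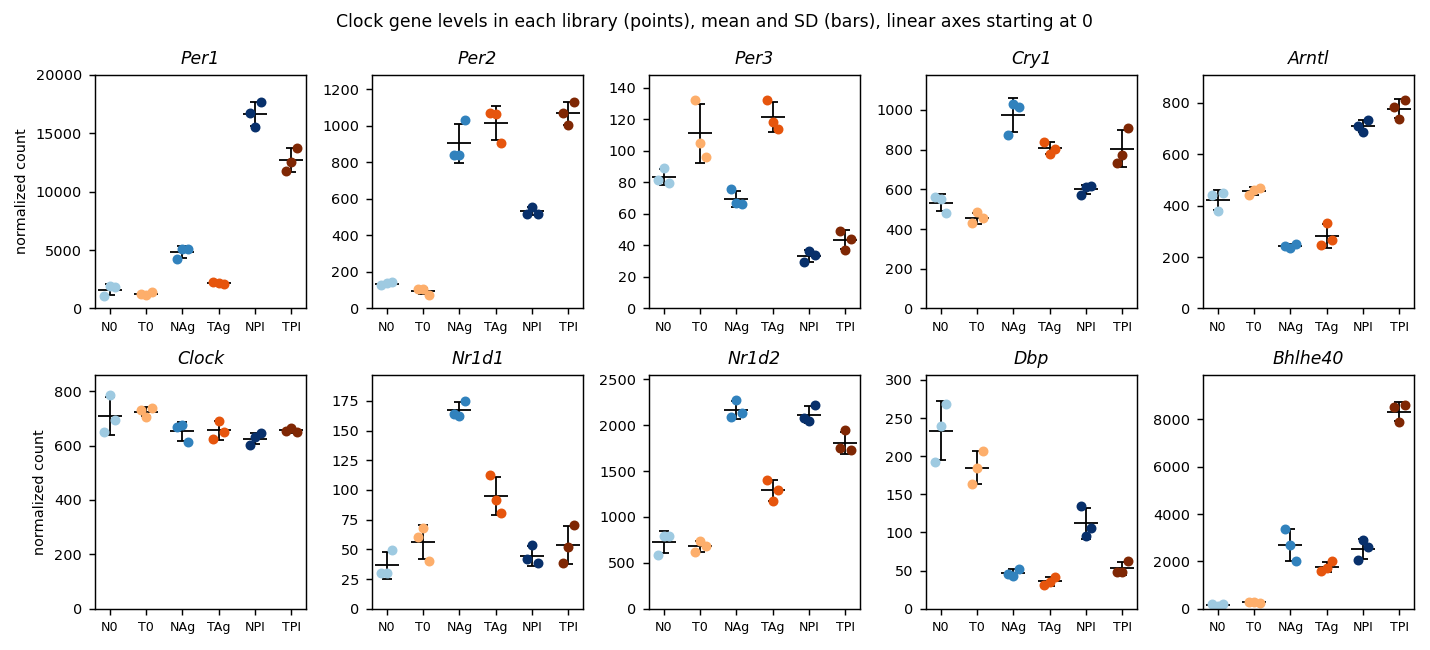
Normalized counts (y axis, linear from 0, a scale of its own for each gene) of the 10 genes in the 6 groups (x axis), with points for the 3 libraries of a group and bars for mean and SD. *Per1* is highest in NPI at 16651 ± 1062 and *Bhlhe40* in TPI at 8326 ± 389, while *Dbp* is highest at rest and the means of *Clock* stay between 626 and 725.

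Counted over the 10 genes, 6 were higher and 2 lower in NAg than in N0, where 32.1% of all tested genes were higher and 33.4% lower. TAg:T0 gave the same counts, 6 higher and 2 lower (29.9% and 29.8% of all genes), NPI:N0 gave 5 and 3 (28.6% and 32.7%) and TPI:T0 gave 6 and 2 (32% and 36.3%). Including a fold of at least 2, 5 were higher and 1 lower in NAg:N0 (19.5% and 22.5%), and 2 and 1 in TAg:T0 (15.4% and 17.2%). With PI, 4 were higher and 2 lower in both states (15.7% and 16% of all genes in naive cells, 18.9% and 21.7% in tolerized cells). The median log2 fold change over the 10 genes was 1.23, 0.76, 0.51 and 0.80 in these responses, against 0.00, −0.05, −0.06 and −0.10 over all genes tested. The replicates of 9 of the 10 genes did not overlap in each response, where 68.1% of all genes did not in NAg:N0, 64.5% in TAg:T0, 66.4% in NPI:N0 and 72.5% in TPI:T0. *Per1*, *Per2*, *Nr1d2* and *Bhlhe40* passed the test upwards and *Dbp* downwards in all 4. The comparisons within a state share their resting libraries. The T cell markers moved too, 4 of 4 lower in NAg:N0, 3 of 4 lower in TAg:T0, and 3 lower and 1 higher in both NPI:N0 and TPI:T0. Of the 10 neutrophil markers 2 were higher in NAg:N0 and 1 in TAg:T0, 6 were lower and 2 higher in NPI:N0 and 8 were lower in TPI:T0. Of the 9 macrophage markers 2 were higher in NAg:N0, 6 lower in NPI:N0, and 3 lower and 1 higher in TPI:T0. The part of these shifts in the members' changes was not tested for single cell types. The PI cells had been cultured and the resting cells had not, so PI and culture cannot be told apart.

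**Figure D2:**
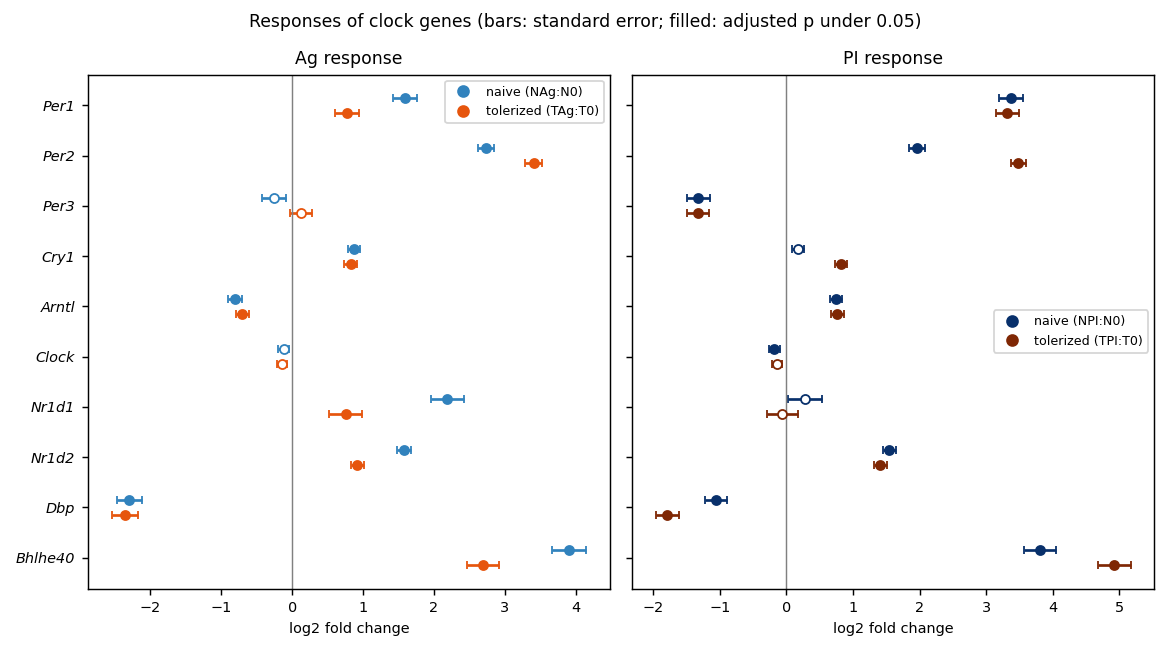
Log2 fold change (x axis) of each gene (y axis) after Ag (left) and after PI (right) in naive (blue) and tolerized (orange to brown) cells, with bars for the SE and filled points for an adjusted p under 0.05. *Arntl* lies left of 0 with Ag (−0.80 and −0.70) and right of 0 with PI (0.75 and 0.77), and the states part most in *Bhlhe40*, *Per2* and *Nr1d1*.

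The 2 stimuli were also compared directly within each state. In naive cells 3 of the 10 genes were higher and 4 lower with PI than with antigen (33.5% and 31% of all genes). *Arntl* was higher by 1.55 (SE 0.10, adjusted p = 6.2e-13), *Per1* by 1.79 (SE 0.17, adjusted p = 1.24e-07) and *Dbp* by 1.24 (SE 0.19, adjusted p = 2.43e-06). The 4 lower genes were *Nr1d1* at −1.91 (SE 0.23, adjusted p = 8.06e-08), *Per3* at −1.07 (SE 0.18, adjusted p = 1.58e-05), *Per2* at −0.77 (SE 0.10, adjusted p = 4.17e-07) and *Cry1* at −0.70 (SE 0.09, adjusted p = 1.74e-07). In tolerized cells 5 were higher and 2 lower (31.5% and 32.3% of all genes). *Per1* was higher by 2.54 (SE 0.17, adjusted p = 2.75e-09), *Bhlhe40* by 2.23 (SE 0.21, adjusted p = 3.82e-07), *Arntl* by 1.47 (SE 0.10, adjusted p = 1.36e-12), *Nr1d2* by 0.49 (SE 0.09, adjusted p = 8.07e-05) and *Dbp* by 0.57 (SE 0.20, adjusted p = 0.0165). The last was lost without TAg replicate 1 (0.49, adjusted p = 0.0696) or TPI replicate 3 (0.42, adjusted p = 0.11). *Per3*, at −1.46 (SE 0.17, adjusted p = 3.3e-08), and *Nr1d1*, at −0.82 (SE 0.23, adjusted p = 0.00321), were lower. With the marker scores as covariates the tolerized calls of *Nr1d1* (−1.07, adjusted p = 0.202), *Nr1d2* (0.39, adjusted p = 0.254) and *Dbp* (0.61, adjusted p = 0.441) were lost. Between PI and antigen 7 of the 10 genes did not overlap in either state (68.5% of all genes in naive and 68.7% in tolerized cells). *Arntl* and *Per1* were thus higher and *Per3* and *Nr1d1* lower with PI in both states. Antigen acted in the animal and PI in culture, and the stimulus and its setting cannot be told apart.

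At rest the only call between tolerized and naive cells was *Per2*, lower in T0 by −0.51 (SE 0.13, adjusted p = 0.00724), so 1 of the 10 genes was lower and 0 higher with edgeR, where 12% and 8.42% of all genes passed. At an unadjusted p under 0.05 the counts were 3 and 3, DESeq2 called 1 and 1, and 3 of the 10 genes did not overlap between the groups (35% of all genes). *Bhlhe40* had a mean of 179 ± 58.7 (SD, n = 3) in N0 and 274 ± 19.6 (SD, n = 3) in T0 without overlap, at 0.61 (SE 0.25, adjusted p = 0.112), and DESeq2 gave an adjusted p of 0.0352. N0 replicate 1 was the lowest N0 library for *Per1*, at 1064 against 1917 and 1842, and without it *Per1* was lower in T0 by −0.57 (adjusted p = 0.000231) and *Dbp* by −0.46 (adjusted p = 0.049). *Nr1d1* passed without N0 replicate 3 (0.90, adjusted p = 0.0327), and *Nr1d1* (0.80, adjusted p = 0.03) and *Per3* (0.50, adjusted p = 0.034) passed without T0 replicate 3. The *Per2* call was lost when N0 and T0 were fitted alone (−0.44, adjusted p = 0.131). Neutrophil markers were higher in T0 for 9 of 10 genes. With the marker scores as covariates *Per2* stood at −0.18 (adjusted p = 0.909), a fit that also took the calls over all genes from 1452 higher and 2067 lower to 15 and 16. The myeloid score, an average over neutrophil and macrophage markers, was 1.20 to 1.31 in N0 and 2.40 to 2.79 in T0. That fit thus cannot cleanly tell the score from the cell state.

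After antigen, tolerized cells had less *Per1*, *Nr1d1*, *Nr1d2*, *Cry1* and *Bhlhe40* and more *Per3* than naive cells, which is 5 of 10 lower and 1 higher, where 18.5% of all genes were lower and 20.9% higher. The replicates of 7 genes did not overlap (47.7% of all genes). *Per1* had a mean of 4825 ± 489 (SD, n = 3) in NAg and 2176 ± 112 (SD, n = 3) in TAg, a log2 fold change of −1.15 (SE 0.17, adjusted p = 6.49e-05). *Nr1d2* had 2163 ± 98.4 and 1289 ± 111 (SD, n = 3 each), at −0.75 (SE 0.09, adjusted p = 1.31e-06), and *Nr1d1* stood at −0.81 (SE 0.22, adjusted p = 0.00408). *Per3* was higher by 0.80 (SE 0.16, adjusted p = 0.00038). None of these 4 overlapped between NAg and TAg, and none was lost when 1 library was left out. *Cry1* was at −0.27 (SE 0.09, adjusted p = 0.0156) and *Bhlhe40* at −0.61 (SE 0.21, adjusted p = 0.0312). Both calls were lost in several of the 6 fits without 1 library, with values of −0.34 to −0.23 and −0.79 to −0.41. *Cry1* was lost without NAg replicate 2, NAg replicate 3 or TAg replicate 2 (adjusted p = 0.0767, 0.0648 and 0.0594). *Bhlhe40* was lost without NAg replicate 1, its highest library (−0.41, adjusted p = 0.149), NAg replicate 2 (adjusted p = 0.0725), TAg replicate 1 (0.107) or TAg replicate 2 (0.0819). *Per2* did not pass, at 0.16 (SE 0.10, adjusted p = 0.212), and *Arntl*, at 0.21 (SE 0.10, adjusted p = 0.106), passed only without TAg replicate 1 (0.30, adjusted p = 0.0318). Of the markers, 4 of 4 T cell and 10 of 10 neutrophil genes were higher and 6 of 9 macrophage genes lower in TAg. The myeloid score was 1.32 to 2.18 in NAg and 2.43 to 2.79 in TAg, so a fit with it cannot cleanly tell it from the state. With the erythroid and myeloid marker scores as covariates *Nr1d2* was the member still called. The fold changes there were −0.99 for *Per1* (adjusted p = 0.0648), 0.82 for *Per3* (0.0923), −0.67 for *Nr1d1* (0.308), −0.99 for *Bhlhe40* (0.103) and −0.11 for *Cry1* (0.721), and the calls over all genes went from 3609 higher and 3185 lower to 982 and 1001.

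After PI the order differed. *Bhlhe40*, *Per2* and *Cry1* were higher and *Dbp* was lower in tolerized cells, 3 of 10 and 1 of 10 where 18.2% and 19.7% of all genes passed. The replicates of 9 did not overlap (50.5% of all genes). *Bhlhe40* had a mean of 2526 ± 427 (SD, n = 3) in NPI and 8326 ± 389 (SD, n = 3) in TPI, a log2 fold change of 1.72 (SE 0.21, adjusted p = 1.76e-05). *Per2* had 531 ± 21.7 and 1067 ± 64.5 (SD, n = 3 each), at 1.01 (SE 0.10, adjusted p = 3.53e-08), and *Cry1* was higher by 0.43 (SE 0.09, adjusted p = 0.000404). *Dbp* had 112 ± 19.9 and 53.0 ± 8.77 (SD, n = 3 each), at −1.07 (SE 0.18, adjusted p = 3.5e-05). These 4 calls stayed when any 1 library was left out and with the marker scores as covariates. *Per1* was lower without overlap, at −0.39 (SE 0.16, adjusted p = 0.07), and passed with DESeq2 (adjusted p = 0.0305). *Nr1d2* was at −0.23 (SE 0.09, adjusted p = 0.0588) and passed without TPI replicate 2 (−0.28, adjusted p = 0.0419). The neutrophil markers were higher in TPI for 6 of 10 genes, and the T cell markers lower for 3 of 4.

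**Figure D3:**
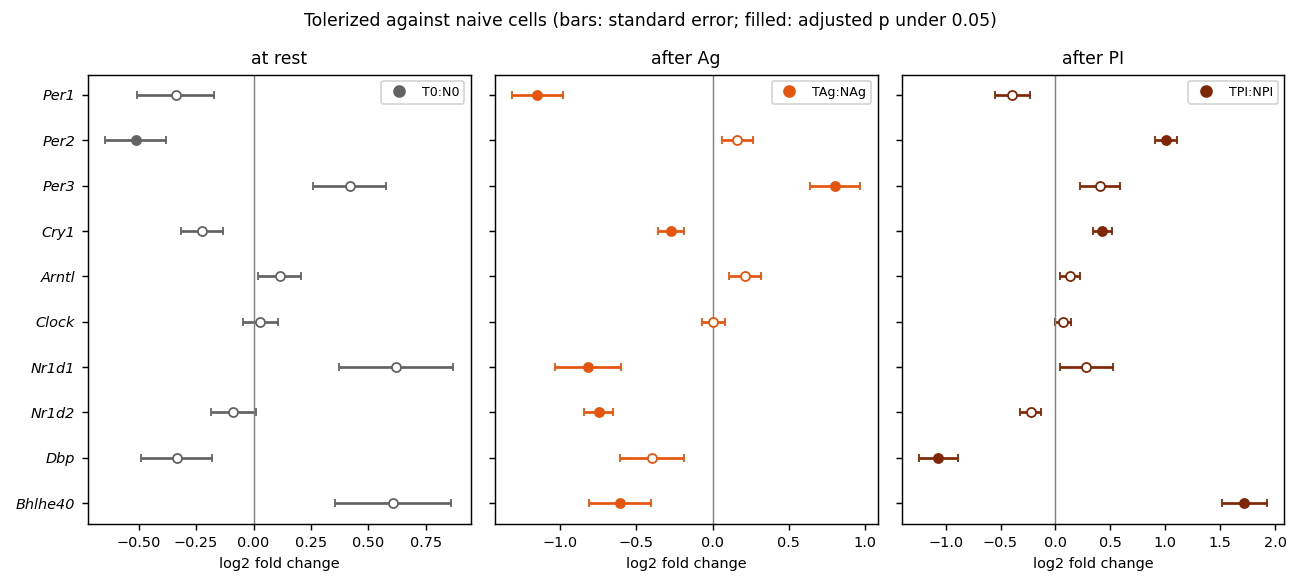
Log2 fold change of tolerized against naive cells (x axis) for the 10 genes (y axis) at rest, after Ag and after PI, with bars for the SE and filled points for an adjusted p under 0.05. *Bhlhe40* lies at −0.61 after Ag and 1.72 after PI and *Per1* at −1.15 and −0.39, and *Per2* is the one filled point at rest.

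Whether the responses themselves differed between the states was tested with the interaction of stimulus and state. The antigen response was smaller in tolerized cells for *Nr1d1* (−1.44, SE 0.33, adjusted p = 0.00251), *Bhlhe40* (−1.21, SE 0.32, adjusted p = 0.0165), *Per1* (−0.81, SE 0.23, adjusted p = 0.0222) and *Nr1d2* (−0.66, SE 0.14, adjusted p = 0.000997). That of *Per2* was larger (0.68, SE 0.17, adjusted p = 0.0043). These are 4 of 10 lower and 1 higher, against 7.09% and 14.6% of all genes. *Per2* started lower in T0 than in N0 (−0.51) and reached overlapping levels in TAg and NAg (0.16, adjusted p = 0.212). Its resting call was lost with N0 and T0 fitted alone and with the marker scores. The *Per1* call was lost without T0 replicate 3, NAg replicate 2 or TAg replicate 3 (adjusted p = 0.0625, 0.0535 and 0.0517). The PI response was larger in tolerized cells for *Per2* (1.52, SE 0.17, adjusted p = 5.98e-07), *Bhlhe40* (1.11, SE 0.32, adjusted p = 0.0267) and *Cry1* (0.65, SE 0.13, adjusted p = 0.000546), and the fall of *Dbp* was deeper (−0.73, SE 0.24, adjusted p = 0.0288). These are 3 of 10 higher and 1 lower, against 12.7% and 7.52%. *Bhlhe40* was lost in 6 and *Dbp* in 7 of the 12 fits without 1 library, with values of 0.97 to 1.38 and −0.89 to −0.58. The *Dbp* losses came without N0 replicate 1, N0 replicate 2, T0 replicate 2, T0 replicate 3, NPI replicate 1, TPI replicate 1 or TPI replicate 2 (adjusted p from 0.0535 to 0.114). Those of *Bhlhe40* came without N0 replicate 1, N0 replicate 3, T0 replicate 1, T0 replicate 3, NPI replicate 1 or TPI replicate 1 (adjusted p from 0.0517 to 0.0805).

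The gap between tolerized and naive cells was then compared between PI and antigen, a contrast that uses no resting library and was chosen after these values were seen. The gap was more positive with PI for 6 of the 10 genes and more negative for 0 with edgeR, against 17.2% and 20% of all genes, and DESeq2 gave the same 2 counts while 1 gene was lower at an unadjusted p under 0.05. With the marker scores as covariates 4 were more positive, as *Per1* (0.73, adjusted p = 0.0807) and *Nr1d1* (1.0, adjusted p = 0.0567) lost the call. It moved by 2.33 (SE 0.29, adjusted p = 2.22e-05) for *Bhlhe40*, 1.10 (SE 0.32, adjusted p = 0.00925) for *Nr1d1*, 0.85 (SE 0.14, adjusted p = 3.89e-05) for *Per2*, 0.76 (SE 0.23, adjusted p = 0.0171) for *Per1*, 0.70 (SE 0.12, adjusted p = 7.3e-05) for *Cry1* and 0.52 (SE 0.13, adjusted p = 0.00296) for *Nr1d2*. *Bhlhe40* and *Cry1* passed the test in opposite directions under the 2 stimuli, lower in TAg than in NAg and higher in TPI than in NPI. *Dbp* went the other way at −0.67 (SE 0.28, adjusted p = 0.0617), and passed without NPI replicate 2 (−0.77, adjusted p = 0.0384) or TPI replicate 3 (−0.82, adjusted p = 0.0288). The *Nr1d1* call was lost without TPI replicate 3 (0.83, adjusted p = 0.0571).

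A list of 24 other clock genes, all tested, gave the wider setting. After antigen 14 were higher and 7 lower in naive cells (32.1% and 33.4% of all genes) and 12 and 4 in tolerized cells (29.9% and 29.8%). After PI 13 and 3 were higher and lower in naive cells (28.6% and 32.7%) and 14 and 7 in tolerized cells (32% and 36.3%). Their median log2 fold changes were 0.73, 0.24, 0.78 and 0.78 in that order. *Rora*, which activates *Arntl* at the site that REV-ERB proteins also bind, rose by 2.87 (SE 0.16) in NAg:N0 and 2.83 (SE 0.16) in TPI:T0. *Nfil3*, a repressor that binds the D-box in competition with DBP, rose by 3.59 (SE 0.23) in TAg:T0, 4.28 (SE 0.27) in NPI:N0 and 5.11 (SE 0.23) in TPI:T0. *Ciart* (Gm129 in the annotation), an inhibitor of ARNTL and CLOCK, rose by 2.92 (SE 0.18) in NAg:N0, 2.38 (SE 0.18) in TAg:T0 and 2.49 (SE 0.19) in NPI:N0. *Nampt*, the enzyme of NAD salvage, rose by 2.94 (SE 0.13) and 2.50 (SE 0.12) after antigen in naive and tolerized cells. With PI *Usp2*, a deubiquitinase, rose by 3.24 (SE 0.12) in NPI:N0 and 3.96 (SE 0.13) in TPI:T0. *Hlf*, a relative of *Dbp*, rose by 2.78 (SE 0.29) in NPI:N0. *Fbxw11*, of the ligase that marks PER proteins for decay, rose by 1.39 (SE 0.06) in TAg:T0 and 2.85 (SE 0.07) in TPI:T0. All of these had an adjusted p of at most 1.55e-08, that of *Hlf*.

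**Figure D4:**
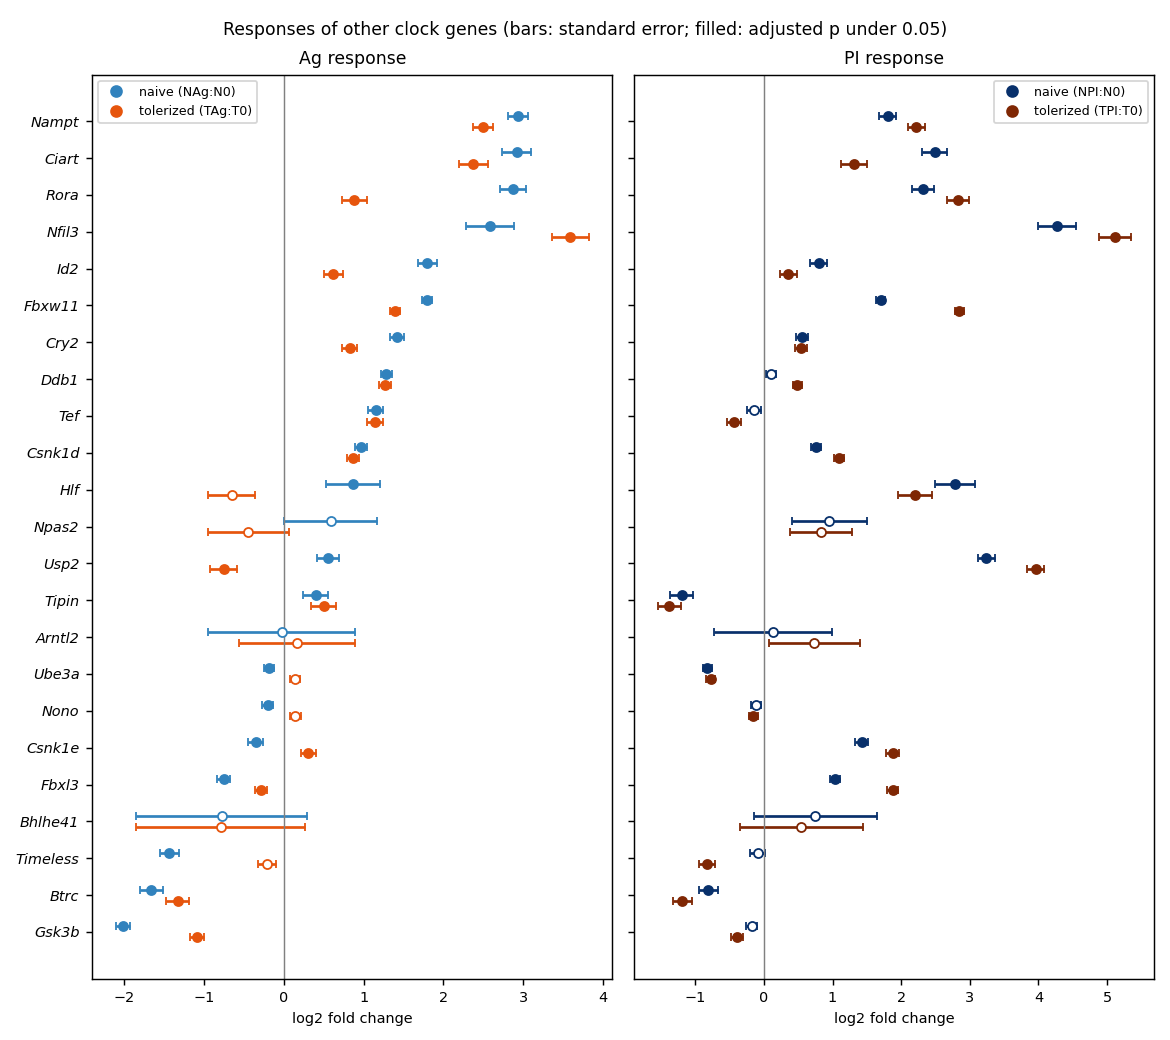
Log2 fold change (x axis) of the other clock genes, 1 of the 24 left out (y axis, ordered by NAg:N0), after Ag (left) and PI (right) in naive (blue) and tolerized (orange to brown) cells, with bars for the SE and filled points for an adjusted p under 0.05. *Nampt* at 2.94 and *Ciart* at 2.92 lead in NAg:N0, and *Nfil3* at 5.11 leads in TPI:T0.

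Between the states, 4 of the 24 were higher and 5 lower in T0 than in N0 (8.42% and 12% of all genes), 4 and 7 in TAg than in NAg (20.9% and 18.5%), and 9 and 7 in TPI than in NPI (18.2% and 19.7%). *Nfil3* was higher in tolerized cells in all 3, by 1.66 (SE 0.32, adjusted p = 0.00242), 2.67 (SE 0.22, adjusted p = 3.74e-07) and 2.50 (SE 0.20, adjusted p = 2.28e-07). At rest *Hlf* (1.38, SE 0.32, adjusted p = 0.00319) was higher too. *Rora* was lower in TAg by −1.12 (SE 0.15, adjusted p = 2.9e-05) and higher in TPI by 1.37 (SE 0.15, adjusted p = 3.11e-06), and *Usp2* was lower in TAg by −1.81 (SE 0.16, adjusted p = 5.34e-09). After PI *Timeless* was lower by −1.46 (SE 0.11, adjusted p = 7.52e-10). The antigen response of tolerized minus naive cells was negative for 7 and positive for 6 of the 24 (7.09% and 14.6% of all genes). The negative ones included *Rora* (−1.99, SE 0.22, adjusted p = 1.13e-05), *Hlf* (−1.52, SE 0.45, adjusted p = 0.0174) and *Usp2* (−1.31, SE 0.22, adjusted p = 0.000107). *Rora* rose in both states, and *Usp2* rose in NAg:N0 (0.55, adjusted p = 0.001) and fell in TAg:T0 (−0.75, adjusted p = 0.000472). The same difference for PI was positive for 6 and negative for 2 (12.7% and 7.52% of all genes). *Ciart*, at −1.17 (SE 0.27, adjusted p = 0.0028), rose by less in tolerized cells, and *Fbxw11*, at 1.15 (SE 0.09, adjusted p = 6.03e-09), rose by more.

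Since *Per1* is also a direct target of the glucocorticoid receptor, 14 other glucocorticoid-responsive genes, all tested, were read beside it. They did not move as 1 group. In NAg:N0 5 were higher and 6 lower (32.1% and 33.4% of all genes), with *Errfi1*, a feedback inhibitor of EGF receptors, at 3.01 (SE 0.13, adjusted p = 2.01e-16) and *Txnip* at −3.38 (SE 0.32, adjusted p = 5.74e-07), *Pik3ip1* at −3.13 (SE 0.26, adjusted p = 6.78e-08) and *Tsc22d3* (GILZ) at −2.80 (SE 0.47, adjusted p = 0.000134). In TAg:T0 3 were higher and 6 lower (29.9% and 29.8% of all genes), in NPI:N0 5 and 4 (28.6% and 32.7%), and in TPI:T0 6 and 7 (32% and 36.3%). *Errfi1* rose in these 3 responses too, by 3.55 (SE 0.12, adjusted p = 4.75e-18), 4.05 (SE 0.12, adjusted p = 1.83e-18) and 4.34 (SE 0.12, adjusted p = 8.55e-20). *Dusp1*, a MAP kinase phosphatase, rose with PI by 3.86 (SE 0.14, adjusted p = 3.94e-14) in naive and 2.86 (SE 0.13, adjusted p = 8.45e-13) in tolerized cells. At rest 6 were higher and 1 lower in tolerized cells (8.42% and 12% of all genes), with *Cebpd* at 2.24 (SE 0.53, adjusted p = 0.0038), *Anxa1* at 1.85 (SE 0.29, adjusted p = 0.000228) and *Klf9* at 1.30 (SE 0.26, adjusted p = 0.00195), and after antigen 6 were higher (20.9% of all genes) and the other 8 did not pass. The fold of *Cebpd* rests on few reads, 4, 3 and 6 in N0 and 32, 24 and 14 in T0. *Cebpd* and *Anxa1* are also expressed in myeloid cells. Neutrophil markers were higher for 9 of 10 in T0:N0 and 10 of 10 in TAg:NAg. Of the 9 macrophage markers 0 were higher in either, and 1 was lower in T0:N0 and 6 in TAg:NAg. The part of myeloid cells in these values was not tested. The PI response of tolerized minus naive cells was negative for 8 of the 14 and positive for 1 (7.52% and 12.7% of all genes). Among the 8 were deeper falls, such as *Txnip* at −0.91 in NPI:N0 and −2.75 in TPI:T0, *Ddit4* at −0.50 (not called) and −2.30 and *Anxa1* at 0.05 (not called) and −1.70, and smaller rises, such as *Dusp1*.

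Over the 18 libraries and 11554 genes, the genes closest in pattern to each member by Pearson's r of log2 normalized counts were named as a description. *Per1* was most like *Sik1* (r = 0.992), *Spty2d1* (0.992) and *Cdk11b* (0.991), and *Per2* like *Ltv1* (0.988), *Ssr4* (0.981) and *Rrp7a* (0.980). *Per3* was most like *Apobec3* (0.963), *Ifi203* (0.954) and *Tnfsf10* (0.952). *Nr1d1* was most like *Myo5a* (0.938), *Ggta1* (0.934) and *Isg20* (0.925), and *Nr1d2* like *Ccdc59* (0.981), *Tatdn2* (0.979) and *Naca* (0.979). *Dbp* was most like *2610301G19Rik* (0.982), *Acadm* (0.975) and *Chd9* (0.975), and *Bhlhe40* like *Rilpl2* (0.988), *SNORA33* (0.986) and *Rnf19a* (0.984). The libraries fall into 6 groups and share their scaling, so the 18 points are not independent. The *Per* genes had no gene in common among those named.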

How the data were processed

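CD4+ T cells of 6 groups with 3 libraries each were sequenced as ribosome-depleted RNA in paired-end reads. The authors deposited 1 table of raw read counts per library, made per the study's methods with TopHat2 2.1.1 on mm9 (NCBIM37) and HTSeq 0.9.1 on Ensembl genes, with no strand setting given. Raw counts carry no length or depth correction, so depth, which was greatest after PI, sets their precision. Groups were taken from the sample labels. In R 4.3.3, edgeR 4.0.16 with TMM scaling and its robust quasi-likelihood test was fitted to all 18 libraries in 1 model of 6 groups, over the 17240 genes, of 24647 with reads, whose mean normalized count reached 3 in 1 or more groups. A gene was called at an adjusted p under 0.05, and a second rule added a fold of at least 2. The SE is the size of the log2 fold change over the square root of the test's F. It rests on the spread within groups estimated from all 18 libraries, not from the compared groups alone. Positions and exon lengths were from a GENCODE annotation of NCBIM37, and promoters from RefSeq GRCm38.p6, whose coordinates are on that build and were not mixed with those of the counts.

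All 10 genes were named in every comparison. From the lists of other clock genes and glucocorticoid-responsive genes at most 4 were named per comparison. They were drawn from those with the largest log2 fold change among calls with a fold of at least 2, and not all of these were named. Some values outside that rule were given to read an interaction, and some comparisons were given as counts only. The single values of 1 of the other clock genes are not reported here, and it stays in the counts. The members and the lists were chosen with earlier results of these data known. Nearest genes needed an average of at least 50 in 1 group and are given for members that passed with a fold of at least 2 in a response. The alternatives were DESeq2 1.42.0, DESeq2 size factors in edgeR, no filter on low counts, only the groups compared, a replicate block, marker scores or Y-linked level as covariates, and leaving out each library. The myeloid score averaged neutrophil and macrophage markers and did not overlap between tolerized and naive cells under the same treatment. Calls lost in fits with the marker scores thus cannot be assigned to cell types.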

Additional observations from a re-analysis of the deposited data

Results flagged for a closer look

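In 15 cases the difference between cell states changed with the stimulus by a test of the difference itself, in edgeR's quasi-likelihood fit with Benjamini-Hochberg adjustment over all genes. The antigen response of tolerized cells minus that of naive cells was −0.81 for *Per1* (adjusted p = 0.0222), 0.68 for *Per2* (0.0043), −1.44 for *Nr1d1* (0.00251), −0.66 for *Nr1d2* (0.000997) and −1.21 for *Bhlhe40* (0.0165), on the log2 scale. The PI response of tolerized minus naive cells was 1.52 for *Per2* (adjusted p = 5.98e-07), 0.65 for *Cry1* (0.000546), −0.73 for *Dbp* (0.0288) and 1.11 for *Bhlhe40* (0.0267). The signed log2 fold change of tolerized against naive cells was more positive with PI than with antigen by 0.76 for *Per1* (adjusted p = 0.0171), 0.85 for *Per2* (3.89e-05), 0.70 for *Cry1* (7.3e-05), 1.10 for *Nr1d1* (0.00925), 0.52 for *Nr1d2* (0.00296) and 2.33 for *Bhlhe40* (2.22e-05). For *Per1* and *Nr1d2* tolerized cells were below naive cells under both stimuli (−1.15 and −0.75 with antigen, −0.39 and −0.23 with PI), so there the distance between the states was smaller with PI. *Bhlhe40* and *Per2* appear in all 3 contrasts, and for *Per2* all 3 values are positive. The 3 contrasts share libraries, so they are not independent of each other. With the marker scores as covariates *Per2* alone kept its PI response call, and *Bhlhe40* lost its antigen response call. *Per1* and *Nr1d1* lost theirs in the comparison of PI with antigen.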

How the results depend on the processing

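Of 120 member values, 72 were called, and under the 7 other settings no called value turned its direction. The number of the 72 that stayed called was 71 with DESeq2, 71 with DESeq2 size factors, 71 with the Y-linked covariate, 70 without the filter on low counts, 70 with the replicate block, 68 with only the groups compared and 54 with the marker scores. In the 18 fits without 1 library, 491 of the called values stayed and 31 lost the call, none reversed, and 10 others gained it. The 40 values that reversed there were all uncalled.

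Counts of members moved by over 1.5 times as follows. In T0:N0 DESeq2 gave 1 higher (against 0), and the marker scores and the fit of only these groups gave 0 lower (against 1). In TAg:NAg the marker scores gave 0 higher and 1 lower (against 1 and 5). In TPI:NPI DESeq2 and no filter gave 2 lower and only the groups compared 3 (against 1). With the marker scores TPI:TAg had 3 higher and 1 lower (against 5 and 2) and the PI interaction 1 and 0 (against 3 and 1). Smaller moves with the marker scores were 4 higher in TPI:T0 and in the gap (against 6 each) and 3 lower in the antigen interaction (against 4), and only the groups compared gave 6 higher and 2 lower in NPI:N0 (against 5 and 3). Without 1 library the counts ranged from 0 to 2 higher and 1 to 3 lower in T0:N0, 1 to 2 and 3 to 5 in TAg:NAg, 1 to 2 lower in TPI:NPI, and 0 to 1 lower in the PI interaction and in the gap between PI and antigen. The cause of these moves was not tested, beyond fewer samples in the last.

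Uncalled values turned direction with the marker scores in T0:N0 (*Cry1* 0.018, *Clock* −0.025, *Nr1d2* 0.062, *Bhlhe40* −0.0062), TAg:NAg (*Clock* −0.042), NPI:NAg (*Bhlhe40* 0.36), TPI:TAg (*Per2* −0.28, *Cry1* −0.24) and the PI interaction (*Arntl* −0.0089). *Clock* in TAg:NAg was −0.030 with DESeq2 and with its size factors. In the PI interaction the Y-linked covariate gave *Per3* 0.041 and *Arntl* −0.021, and only the groups compared gave *Arntl* −0.062 and *Clock* −0.046. Without 1 library, the uncalled values that crossed 0 ranged as follows. *Clock* ran from −0.035 to 0.10 in T0:N0, −0.040 to 0.038 in TAg:NAg, −0.017 to 0.042 in TPI:TAg, −0.084 to 0.054 in the antigen interaction and −0.023 to 0.12 in the PI interaction. *Nr1d1* in TPI:T0 ran from −0.33 to 0.15, *Nr1d2* in NPI:NAg from −0.070 to 0.0044, *Bhlhe40* in NPI:NAg from −0.28 to 0.096, *Cry1* in TPI:TAg from −0.097 to 0.077 and *Arntl* in the gap from −0.14 to 0.055. In the antigen interaction *Cry1* ran from −0.12 to 0.036, *Arntl* from −0.036 to 0.19 and *Dbp* from −0.20 to 0.078. In the PI interaction *Per1* ran from −0.18 to 0.19, *Per3* from −0.091 to 0.14, *Arntl* from −0.011 to 0.11 and *Nr1d2* from −0.19 to 0.0074.

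Replicate numbers showed no sign of pairing in the correlation of deviations. Over 45 pairs with the same number its median was −0.02, with 2 above 0.1. Over 90 pairs with different numbers it was 0.01, with 6 above 0.1. These values cannot show whether libraries shared animals or days. With the replicate block, *Bhlhe40* in TAg:NAg was −0.60 (adjusted p = 0.0557) and its PI interaction 1.11 (adjusted p = 0.0501), no longer called, *Dbp* in the gap was −0.68 (adjusted p = 0.0429), so 1 member was lower there, and *Cry1* in TPI:TAg was −0.0027. Depth limits *Nr1d1*, *Per3* and *Dbp* most, with 28 reads in the lowest library.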
